A study of Mus musculus with 2 samples.

Results

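The genes described here encode the enzymes that add methyl groups to DNA and histones or take them off, with a few partners of those enzymes. They were chosen by name from the symbols of the array platform: every gene starting with Dnmt, Kdm, Kmt, Ehmt, Setd, Suv39h or Prmt, together with Tet1, Tet2, Tet3, Uhrf1, Ezh1, Ezh2, Eed, Suz12, Nsd1 and Dot1l. This gave 61 genes of the 18193 measured, read by 165 probe sets, and each gene was represented by its brightest probe set. They comprised 32 writers, 21 erasers and 8 genes that are neither. Suv39h1 was not analysed here.

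The samples were whole pancreas of 10-week-old male offspring of C57BL/6J dams. Between embryonic days 12.5 and 14.5 one set of dams ate a diet lacking in threonine, an essential amino acid, and the other set ate the control diet. After weaning at 3 weeks all offspring ate the control diet, so neither group was treated directly. Each group was 1 pool of RNA on 1 Affymetrix expression array, and how many animals entered a pool is not stated in the labels. No value below therefore has a replicate, no test of a difference between the diets was possible, and every comparison is between these 2 pools only.

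Methylation of cytosine in CG dinucleotides is laid down by DNA methyltransferases and is oxidised by TET enzymes as a step towards its removal. Histone methyltransferases modify lysines and arginines of the histone tails, where the same chemical group can accompany active or silent chromatin depending on the residue, and lysine demethylases reverse the lysine marks. All the writers draw their methyl group from S-adenosylmethionine, whereas TET enzymes and Jumonji demethylases need 2-oxoglutarate and iron. In mouse embryonic stem cells the breakdown of threonine feeds the supply of S-adenosylmethionine, which is a reason to look at this family after a diet low in threonine.

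Signals are linear array units, scaled by the authors to the same trimmed mean of 500.0 on both arrays. A signal up to 264.9, which is the 60th percentile of the array where that is higher, was treated as unmeasured and raised to that floor. The log2 ratio is that of the threonine-deficient over the control pool, so a positive value means a higher signal in the threonine-deficient pool. A ratio with 1 side at the floor is a bound and is given as "at least". As a scale for single genes, the local spread is a scaled median absolute deviation, taken over the log2 ratios of the 300 genes nearest in signal. It covers array noise together with real differences between the pools, and it says nothing of the spread between animals. Signals of different genes come from different probes and were not compared with each other.

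Most of the family was measured in adult pancreas, and no member above the floor in both pools differed by 2-fold in the probe set used. Other probe sets passed 2-fold in Kmt2e (2.40-fold higher) and Kdm2a (at least 2.11-fold lower), and the counts below leave them out. Of the 61 genes, 52 lay above the floor in at least 1 pool and 49 in both. The other 9 were below it in both: the methyltransferase genes Dnmt3b, Suv39h2 and Prmt8, the eraser genes Tet1, Kdm4d and Kdm8, the cofactor genes Dnmt3l and Uhrf1, and Setd4. None of the 52 was at least 2-fold higher, where 1.28% of the 10758 genes above the floor were, and none was at least 2-fold lower, where 0.874% were (2.16% in either direction). The count of higher members rests on Kdm4b, whose bound of 1.9999-fold just misses the limit. It was 1 with the floor at the 50th percentile, 2 with no floor (Kdm4b and Tet3) and 1 with a pseudocount. At a limit of 1.5-fold, 3 members were higher and 4 lower, together 13.5% of the 52, beside 12.6% of all genes. By direction the background was 7.2% higher and 5.36% lower, so the shares of the family lay near those of the array. The median log2 ratio of the 52 members was −0.032, beside 0.0011 for all genes, and the median absolute log2 ratio was 0.19, beside 0.22. The members' values in both pools are drawn in the plot of signals by gene.

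**Figure D1:**
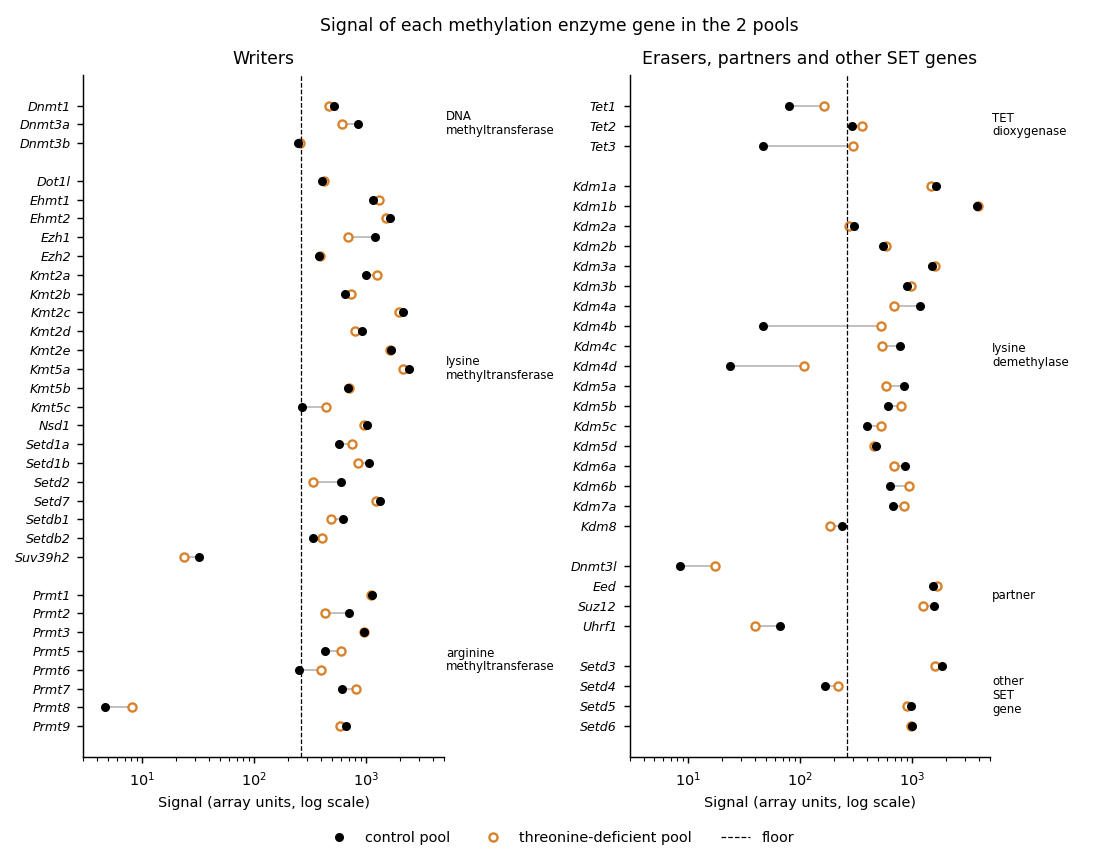
Signal of each of the 61 genes in the control pool (filled black) and the threonine-deficient pool (open orange), on a log scale of array units, with the floor of 264.9 as a dashed line. Signals compare 1 gene between the pools and not genes with each other; 49 genes lie above the floor in both pools, and wide gaps such as those of Tet3 and Kdm4b have the control value below the floor.

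Among the DNA methyltransferases, Dnmt1, which copies methylation to the new strand after replication, had a signal of 517 in the control pool and 467 in the other (log2 ratio −0.15, local spread 0.49). Dnmt3a, which sets new methylation, went from 841 to 614 (−0.45, local spread 0.39). Both signals were lower in the threonine-deficient pool by about the local spread or less, and their other probe sets pointed the opposite way. A second probe set of Dnmt1 gave at least 0.45, while 3 others of Dnmt3a gave 0.09, 0.60 and at least 0.72. Dnmt3b, the other enzyme of new methylation, was below the floor in both pools at 245 and 259. Dnmt3l, a catalytically inactive helper of the Dnmt3 enzymes that is known from germ cells, was at 8.43 and 17.6. Uhrf1, which brings Dnmt1 to hemimethylated CG sites and is known as a gene of dividing cells, was at 65.8 and 39.99, also below the floor.

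Of the TET genes, Tet2 was the 1 measured in both pools, at 294 in the control pool and 358 after threonine deficiency (log2 ratio 0.29, local spread 0.53). Tet3 had 46.9 in the control, below the floor, and 299 in the threonine-deficient pool, so that it was at least 1.13-fold higher. That bound is small because the higher signal lies close to the floor, and with the floor at the 50th percentile it became a log2 ratio of at least 0.70. Tet1 stayed below the floor at 80.4 and 165. Of this group only Tet2 was thus above the floor in both pools, and its difference lay within the local spread.

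The lysine methyltransferases were the largest group, with 20 of 21 genes above the floor and a median log2 ratio of −0.050, 9 of them positive and 11 negative. Both of its members that were at least 1.5-fold lower are known for opposite kinds of chromatin. Ezh1, a catalytic subunit of Polycomb repressive complex 2 that is prominent in non-dividing tissue, went from 1213 to 691 (log2 ratio −0.81, local spread 0.32). Setd2, the enzyme of histone H3 lysine 36 trimethylation along transcribed genes, went from 597 to 339 (−0.82, local spread 0.48). The member on the high side was Kmt5c, which trimethylates histone H4 lysine 20, from 270 to 442 (log2 ratio 0.71, local spread 0.78). Its control signal lay just above the floor, and it and Setd2 were each read by 1 probe set. A second probe set of Ezh1, also above the floor in both pools, went from 404 to 419 (log2 ratio 0.052), so the lower value of Ezh1 was not seen in both of its readings. With the median over all its probe sets Ezh1 stood at 0.00, and Setd2 stood at −0.22, a bound, with the floor at the 75th percentile and at −0.51 with a pseudocount, so that neither then passed 1.5-fold. Without probe sets ending in _s_at, _x_at or _a_at, which may be shared between transcripts, Ezh1 had no reading above the floor.

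The other parts of Polycomb repressive complex 2 gave smaller ratios. Ezh2, the catalytic subunit typical of dividing cells, had 383 and 392 (log2 ratio 0.034). Eed, the subunit that binds the methylated histone, had 1554 and 1676 (0.11). Suz12, the scaffold of the complex, had 1566 and 1265 (−0.31, local spread 0.29), with 3 other probe sets at −0.17, 0.0036 and 0.30. None of these 3 core subunits was therefore 1.5-fold apart. On the opposing side, the demethylase gene Kdm6b went from 633 to 948 (log2 ratio 0.58, local spread 0.35), which is 1.498-fold and just under the 1.5-fold limit. A further probe set of Kdm6b gave 0.21, in the same direction. Kdm6a, its X-linked relative, went from 864 to 690 (−0.32), with −0.41 in another probe set, so the 2 Kdm6 genes had ratios of opposite sign.

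The enzymes of histone H3 lysine 4 methylation, a mark of active promoters and enhancers, showed no common direction in the probe sets used. The 7 writers had a median log2 ratio of −0.11 and ranged from −0.30 for Setd1b to 0.40 for Setd1a, both catalytic subunits of SET1 complexes. Kmt2a, a trithorax homologue, went from 991 to 1246 (0.33, local spread 0.31), and its other probe set gave 0.56 in the same direction. Kmt2b had 0.17, Kmt2c −0.13, Kmt2d −0.19 and Setd7 −0.11. In Kmt2c, Kmt2d and Setd1b the other probe sets above the floor in at least 1 pool had the opposite sign. Those of Kmt2c gave 0.22, 0.33 and at least 0.19, that of Kmt2d at least 0.59 and that of Setd1b 0.42. The further readings of these writers were thus all positive, and the negative median depended on the probe set used. The 6 erasers of the mark had a median of −0.0046. Kdm5a went from 853 to 582 (−0.55, local spread 0.39), Kdm5b from 614 to 797 (0.38) and Kdm5c from 394 to 526 (0.42, local spread 0.45). Kdm5a was thus lower and its paralogues Kdm5b and Kdm5c higher, but other probe sets of Kdm5a gave 0.70 and 0.36, and 1 of Kdm5c gave a bound of −0.25. Kdm5d, which lies on the Y chromosome, was at 476 and 460, above the floor in both pools labelled male. Of the amine oxidases that also act on this mark, Kdm1a had −0.15 in the probe set used and 0.44 in another, and Kdm1b had 3804 and 3910 (0.040, local spread 0.19).

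The enzymes of histone H3 lysine 9 methylation, a mark of silent chromatin, held 2 of the 7 members past the 1.5-fold limit, and both were erasers. They came from 4 writers and 5 erasers above the floor, and 12.6% of all genes passed that limit. A list this short cannot be set against that share. Kdm4a went from 1179 to 696 (log2 ratio −0.76, local spread 0.33). Kdm4b had 46.6 in the control, below the floor, and 530 in the threonine-deficient pool, so that it was at least 1.9999-fold higher, just short of the 2-fold limit. Kdm4c went from 777 to 542 (−0.52, local spread 0.41). These paralogues remove the same marks, and their ratios pointed in different directions, with Kdm4a and Kdm4c lower and Kdm4b higher in the threonine-deficient pool. Kdm4b and Kdm4c were each read by 1 probe set, and the other probe set of Kdm4a lay below the floor, so that its median over both was −0.38. The bound of Kdm4b moved with the floor, from a log2 ratio of 0.049 with the floor at the 75th percentile to 1.53 at the 50th, and its ratio was 1.35 with a pseudocount and 3.51 with no floor. Kdm3a and Kdm3b, which act on the lower methylation states, had 0.073 and 0.13. Among the writers, Setdb1, the enzyme that silences endogenous retroviruses, went from 620 to 483 (−0.36, local spread 0.47). Setdb2 had 0.27, and the partner enzymes Ehmt1 and Ehmt2 had 0.19 and −0.12. No writer of this mark was 1.5-fold apart.

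For histone H3 lysine 36, Nsd1, which makes the dimethyl state, had 1012 and 969 (log2 ratio −0.063), beside the lower value of Setd2. The erasers listed for this lysine, Kdm2a and Kdm2b, had −0.16 and 0.10, while the Kdm4 genes were listed under lysine 9 only. A second probe set of Kdm2a went from 558 to 86.2, at least 2.11-fold lower. For histone H4 lysine 20, Kmt5a, the monomethyltransferase, had 2422 and 2129 (−0.19), with −0.17 in a further bright probe set, and Kmt5b had 694 and 701 (0.015). Only Kmt5c of this trio was past 1.5-fold, and it was not with the loess trend removed (0.58) or with a pseudocount (0.40), and lay below the floor set at the 75th percentile, as Prmt6 also did. Dot1l, the sole known histone H3 lysine 79 methyltransferase, had 406 and 424 (0.061), but its other probe set went from 504.4 to 128, at least 1.90-fold lower. Kmt2e, counted here as a writer by its name although its SET domain has no established activity, had 1671 and 1628 (−0.038) in the probe set used. Its other probe sets above the floor gave 506 and 1214, 2.40-fold higher, and 298 and 462, 1.55-fold higher. Kdm7a, a demethylase of lysines 9 and 27 that was listed under neither mark, had 670 and 842 (0.33). Its other probe set above the floor gave 0.90. The values of writers and erasers of each mark are set side by side in the plot of the 6 histone lysines.

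**Figure D2:**
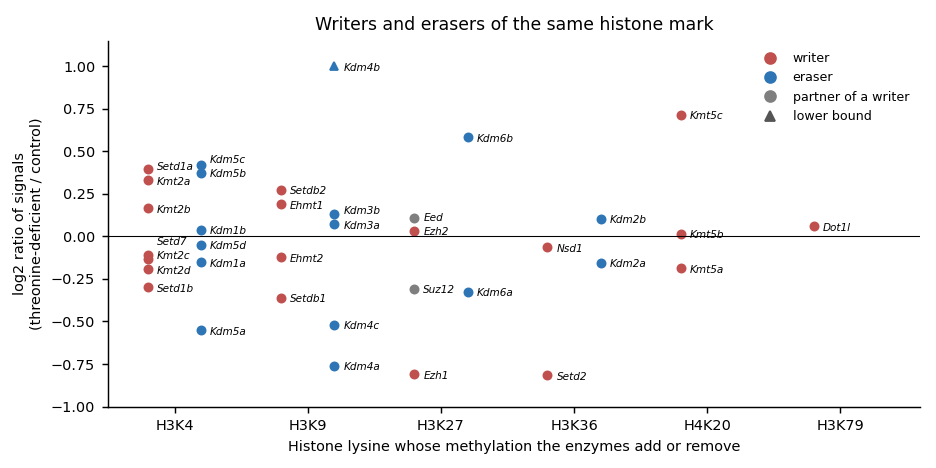
Log2 ratio of signals (threonine-deficient over control) of writers (red) and erasers (blue) of 6 histone lysines, with Eed and Suz12 in grey; each point is 1 gene above the floor in at least 1 pool and the triangle is a bound. Each gene is drawn under 1 lysine at most, with the Kdm4 genes under H3K9 and Kdm7a under none. Both signs occur among the erasers drawn for H3K4, H3K9, H3K27 and H3K36. The values furthest from 0 on the low side are those of Setd2 (−0.82), Ezh1 (−0.81) and Kdm4a (−0.76).

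The arginine methyltransferases act on histones and on many other proteins. Their median log2 ratio was −0.0077 over 7 of 8 genes above the floor, 3 positive and 4 negative. Prmt1, which makes most asymmetric dimethylarginine in cells, had 1141 and 1121 (−0.025, local spread 0.30). Prmt2 went from 713 to 432 (−0.72, local spread 0.43), while its second probe set had 372 and 398 (0.096). Prmt5, the main enzyme of symmetric dimethylarginine, went from 431 to 596 (0.47, local spread 0.51), and Prmt7 went from 609 to 815 (0.42). Prmt6 had 253 in the control, below the floor, and 399 in the threonine-deficient pool, at least 1.51-fold higher. Prmt3 and Prmt9 had −0.0077 and −0.16, and the brain-enriched Prmt8 was at 4.71 and 8.06, below the floor. Prmt2 on the low side and Prmt6 on the high side were the only members of the group past 1.5-fold, and neither had a second reading that passed it. Both fell short of 1.5-fold with a pseudocount (−0.49 and 0.36) and with the median over probe sets (−0.31 and 0.30), as did Prmt2 with the floor at the 75th percentile (−0.48) and Prmt6 with the loess trend removed (0.47).

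The SET-domain genes whose chief substrates are not histones, or are disputed, gave small ratios. Setd3, which methylates actin on histidine, had 1845 and 1597 (−0.21, local spread 0.26). Its other probe set gave 0.12, a bound with the control at the floor. Setd5 had 974 and 905 (−0.11), and Setd6 had 1002 and 976 (−0.038). Setd4 was below the floor at 167 and 219.99.

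**Figure D3:**
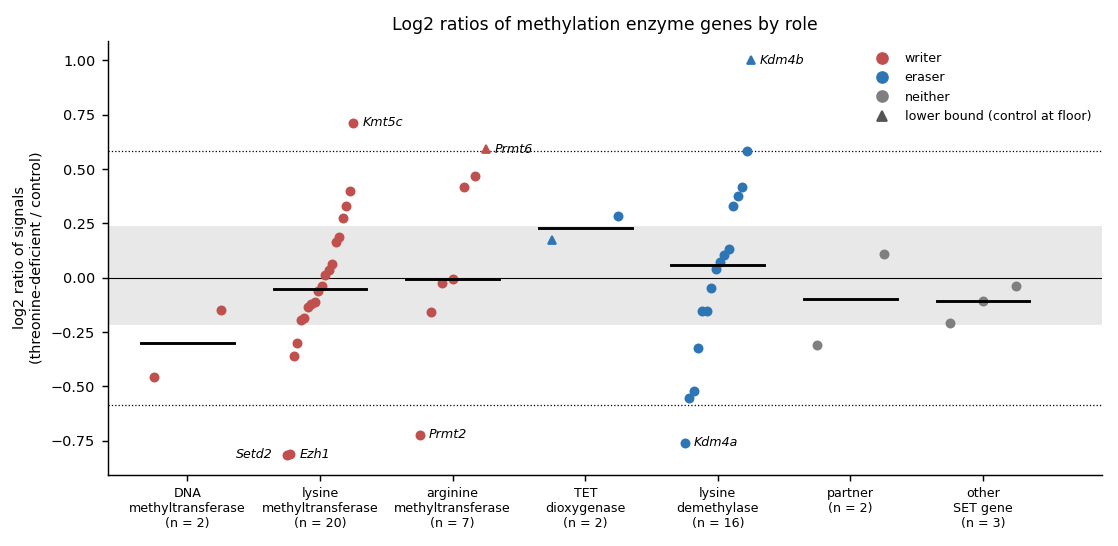
Log2 ratio of signals (threonine-deficient over control) of the 52 genes above the floor in at least 1 pool, by role; bars are group medians, triangles are bounds, the grey band holds the middle 50% of all 10758 genes (−0.21 to 0.23) and dotted lines mark 1.5-fold. The group median of the DNA methyltransferases (−0.30, 2 genes) lies below the grey band. Those of the other roles, such as lysine methyltransferases (−0.050) and lysine demethylases (0.056), lie inside it, and 7 named genes lie past the dotted lines.

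Set against each other, the writers had the lower median. Over 29 writers above the floor it was −0.038, with 12 positive and 17 negative, and over 18 erasers it was 0.088, with 11 positive and 7 negative. Of all 10758 genes above the floor, 49.85% were negative. The difference of the medians, writers minus erasers, was −0.13 on the log2 scale. Kdm4b, Tet3 and Prmt6 entered through the threonine-deficient pool alone and could only be positive. Over the genes above the floor in both pools the medians were −0.050 for 28 writers and 0.056 for 16 erasers, a difference of −0.11. Both medians lay within the middle 50% of all genes, which ran from −0.21 to 0.23, and the ranges overlapped almost entirely, from −0.82 to 0.71 for writers and from −0.76 to a bound of 0.9999 for erasers. Of the writers, 2 were at least 1.5-fold higher and 3 lower, and of the erasers 1 was higher and 1 lower. Together these were 17.2% of the writers and 11.1% of the erasers above the floor, beside 12.6% of all genes, so both shares lay near that of the array. Without the arginine methyltransferases the median of the writers was −0.086 and the difference −0.17. Taken as the median over all probe sets of each gene, the writers were at 0.00 and the erasers at 0.020, and the difference shrank to −0.020. Probe sets below the floor in both pools enter that median as 0, which pulls it towards 0. Apart from these zeros, the probe set used and the next one had the same sign in only 11 of 26 members. How much of the smaller difference comes from the zeros and how much from the choice of probe set was not tested. With 1 array per group, a difference of this size has no replicate check.

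**Figure D4:**
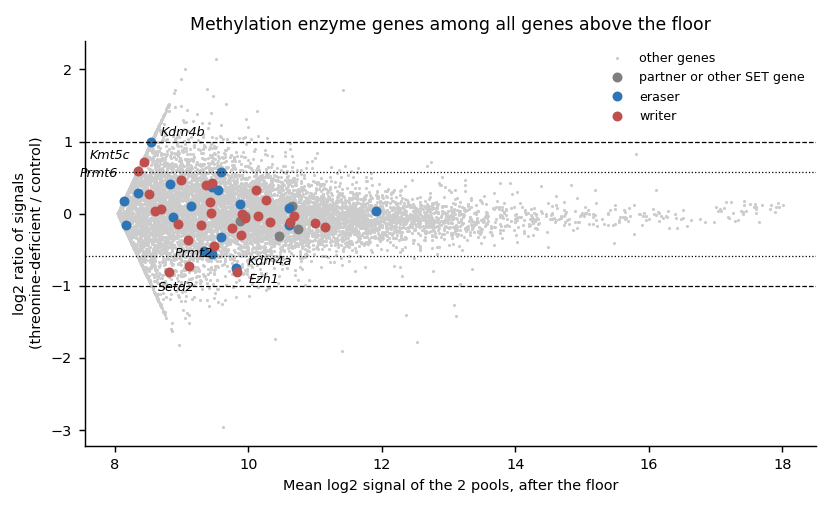
Log2 ratio against mean log2 signal after the floor, for all 10758 genes above the floor in at least 1 pool (grey) and the 52 members (coloured); dashed lines mark 2-fold and dotted lines 1.5-fold. The members lie within the cloud of other genes; Kdm4b is on the dashed line with 1.9999-fold as a bound, and no member lies beyond it.

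Repeat readings of the same gene by different probe sets often differed. In 26 members both the probe set used and a second one lay above the floor in at least 1 pool. The 2 readings had the same sign in 11 of the 26, or 42.3%, beside 52.1% of 4251 genes of the whole array. Their median absolute difference was 0.51 in the members and 0.32 in all genes. Among the 4 members at least 1.5-fold lower, Ezh1 and Prmt2 had a second reading, and both second readings were slightly above 0. Among the 3 that were higher, none had a second reading above the floor. Kmt2a, Kmt5a, Kdm2b, Kdm6a, Kdm6b and Kdm7a were among the members whose readings shared their sign.

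**Figure D5:**
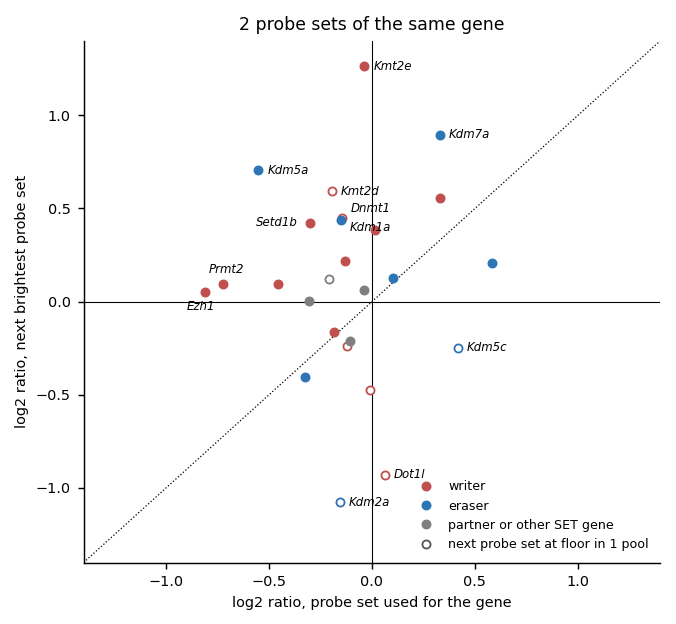
Log2 ratio (threonine-deficient over control) in the probe set used for the gene and in its next brightest probe set, for 26 members with 2 probe sets above the floor in at least 1 pool; open points have the next probe set at the floor in 1 pool, and the dotted line marks equal values. Points scatter over all 4 quadrants, with 11 of 26 in those of equal sign, and Kmt2e, Kdm5a, Kdm2a and Dot1l lie far from the line.

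The proximal promoters of the family were rich in CG dinucleotides, the sites on which DNA methyltransferases and TET enzymes act, as were those of most genes measured. In windows from 250 bases before to 50 bases after the start of a gene, in the RefSeq table of mouse promoters on GRCm38.p6, 52 of the 61 genes had an entry. Taking the richest window of a gene with several starts, the members held a median of 28.5 CG dinucleotides, from 1 to 65. The median was 8.0 over the 27025 genes of the table and 22.0 over 8698 genes above the floor on the arrays. In 50 of the 52 members the number was above the table's median, beside 85.6% of the genes above the floor. These 52 are not the members above the floor on the arrays. Some below it, such as Dnmt3b and Tet1, had an entry, and some above it, such as Kdm4b and Nsd1, had none. Writers had a median of 32.0 and erasers 21.5. Printed below are the 250 bases before the start for the 5 members that were at least 1.5-fold apart and above the floor in both pools, each of which has 1 start in the table. They run 5′ to 3′ on the strand of the gene, and capitals mark the CG dinucleotides.
Ezh1, chr11:101226464-101226713 (- strand): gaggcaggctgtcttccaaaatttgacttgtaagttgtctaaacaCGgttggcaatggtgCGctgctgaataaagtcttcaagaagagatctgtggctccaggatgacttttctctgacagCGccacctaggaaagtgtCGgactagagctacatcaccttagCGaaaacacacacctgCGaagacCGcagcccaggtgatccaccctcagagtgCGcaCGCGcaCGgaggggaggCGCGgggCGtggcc
Setd2, chr9:110532347-110532596 (+ strand): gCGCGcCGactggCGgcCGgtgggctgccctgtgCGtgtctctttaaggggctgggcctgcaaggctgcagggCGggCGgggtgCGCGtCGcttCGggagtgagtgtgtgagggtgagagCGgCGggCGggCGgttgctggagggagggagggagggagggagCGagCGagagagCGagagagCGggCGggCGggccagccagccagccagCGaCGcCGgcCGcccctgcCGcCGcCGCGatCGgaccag
Kdm4a, chr4:118180044-118180293 (- strand): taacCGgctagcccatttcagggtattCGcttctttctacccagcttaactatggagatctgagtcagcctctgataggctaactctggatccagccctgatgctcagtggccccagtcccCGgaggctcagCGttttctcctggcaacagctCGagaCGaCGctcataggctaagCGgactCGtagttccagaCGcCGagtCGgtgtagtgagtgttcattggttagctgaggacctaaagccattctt
Prmt2, chr10:76237866-76238115 (- strand): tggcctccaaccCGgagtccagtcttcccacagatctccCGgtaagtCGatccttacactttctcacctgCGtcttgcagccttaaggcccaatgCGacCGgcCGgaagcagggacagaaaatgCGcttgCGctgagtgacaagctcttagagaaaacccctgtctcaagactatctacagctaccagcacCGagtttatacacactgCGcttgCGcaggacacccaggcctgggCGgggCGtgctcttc
Kmt5c, chr7:4739877-4740126 (+ strand): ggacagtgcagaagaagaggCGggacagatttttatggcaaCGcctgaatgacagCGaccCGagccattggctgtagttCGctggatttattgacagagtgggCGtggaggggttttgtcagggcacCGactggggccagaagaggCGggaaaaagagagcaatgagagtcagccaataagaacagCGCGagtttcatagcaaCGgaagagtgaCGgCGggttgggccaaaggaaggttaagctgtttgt
The stretch before Setd2 holds 31 CG dinucleotides and 76.0% G and C. Those before Ezh1 and Prmt2 hold 14 each, that before Kmt5c 13 and that before Kdm4a 12. The lower genes thus differ among themselves in this feature, and the higher gene Kmt5c lies close to Ezh1, Prmt2 and Kdm4a. No methylation was measured in these samples.

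Genes that work with the family were read in lists that the naming rule did not use. The listed subunits of complexes that methylate histone H3 lysine 4 were all above the floor in both pools. Their median log2 ratio was −0.13 over 10 genes, and 8 of the 10 were negative, beside 49.85% of all genes. None was 1.5-fold apart, and the largest absolute values were those of Wdr5, a core subunit (−0.54), and Pagr1a (−0.54). Further subunits of Polycomb repressive complex 2, Rbbp4 and Rbbp7 among them, had a median of 0.057 over 7 genes. Phf1 had 0.35 and Phf19 0.13, and Jarid2 was at least 1.62-fold lower, going from 429 to a signal below the floor. Other methyltransferases and demethylases outside the naming rule had a median of −0.023 over 15 of 17 genes above the floor. Of these, Nsd3 was 1.53-fold lower, from 1611 to 1053, and Phf2 had 0.52. Jarid2, Mtr and Mbd3 were named after their values were seen.

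The methyl donor cycle gave no common direction either. Of 11 genes of the list read here, 10 were above the floor, with a median log2 ratio of −0.012. Ahcy, which clears the S-adenosylhomocysteine left by every methyl transfer, had 20517 and 19470 (−0.076, local spread 0.12). Ahcyl1, a relative of Ahcy, had −0.31 and Bhmt, which remethylates homocysteine from betaine, had 0.30. Mtr, the methionine synthase, had 243 in the control, below the floor, and 425 in the threonine-deficient pool, at least 1.603-fold higher. It was the only gene of these 11 past 1.5-fold. Mat2a was not analysed here.

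Whole pancreas mixes cell types, and fewer cells of a type cannot be told apart from less RNA per cell. The defining acinar and islet markers were present in both pools, and all 5 measured acinar markers and 6 of 6 islet markers lay above the floor. The sums below are of signals as deposited, so those under the floor enter unraised. The summed signal of the 6 measured adipocyte markers was 42480.7 in the control pool against 23073.5, with all 6 log2 ratios negative. That of the 5 duct markers was 1828.1 and 3447.3, with Cftr and Krt7 below the floor. Without Car2 the other 4 duct markers summed to 1479.4 and 1906.7. The sum of the 6 islet markers was 173904.9 and 142916.5. The 5 immune markers summed to 1636.7 and 2229.9, with Cd79a and Cd3e below the floor. The 5 endothelial markers summed to 1310.5 and 2063.4, with Vwf below the floor and Kdr below it in the control pool. Kdr alone gave 61.4 and 341 of these sums. The 5 stromal markers summed to 11768.5 and 12459.7, with Col1a1 and Pdgfrb below the floor. The 5 acinar markers summed to 755258.6 and 817772.1, with 4 log2 ratios positive and 1 negative. The negative one was that of Ptf1a (−0.27, local spread 0.14). The 6 measured markers of dividing cells, the class in which Uhrf1, Dnmt1 and Ezh2 are best known, summed to 5152.2 and 5177.1, with Birc5 below the floor. Pcna alone gave 3420 and 3272 of these sums. Mki67 went from 162 to 340 and Top2a from 115 to 275, each below the floor in the control pool. Of the 5 above the floor in at least 1 pool, 3 had positive and 2 negative log2 ratios. The part of these differences in the values of the methylation enzymes was not tested.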

How the data were processed

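The deposited table gave, for each probe set of an Affymetrix mouse expression array, a signal intensity on a linear scale. The authors made it with MAS5, per the submitters' processing notes, which state no version. That method brings every array to 1 overall level, which hides any difference in total mRNA. Of 45101 probe sets, 64 were controls, 34945 carried 1 gene symbol, 932 several and 9160 none. Genes were named from probe sets with 1 symbol; 1 probe set naming a member and another gene was left out. Symbols were checked through gene identifiers against RefSeq GRCm38.p6, which matched 34741.

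The brightest probe set by mean log2 signal stood for each gene, and signals were floored at 264.9. Counts used limits of 2-fold and 1.5-fold over the 10758 genes above the floor in at least 1 pool. The computation used Python 3.11.15, pandas 2.3.3, numpy 2.4.6 and, for the loess trend with a span of 0.3, statsmodels 0.14.6, and was tested on simulated data. The 2 arrays limit the precision of every value.

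The genes and gene lists were chosen with earlier results of these data known. Roles follow textbook knowledge. Named with both signals were members at least 1.5-fold apart, the 3 largest absolute ratios and the brightest gene of each role, and the genes at the centre of the family (Dnmt1, Dnmt3a, Dnmt3b, the TET genes, Uhrf1, the Polycomb core, Nsd1, Setdb1, Dot1l); other members were described as their marks came up. Of the lists of related genes, the 2 with the largest absolute ratio above the floor in both pools were named, with Ahcy. Alternatives tried were a loess trend removed, centring on the median, other floors, no floor, a pseudocount equal to the floor, the median over probe sets, and leaving out probe sets ending in _s_at, _x_at or _a_at.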

Additional observations from a re-analysis of the deposited data

How the results depend on the processing

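No paired analysis was possible because each group was 1 pooled sample. The medians of writers (from −0.086 to 0.00) and erasers (from 0.020 to 0.13) kept their order under each alternative run. Their difference stayed between −0.17 and −0.099 except with the median over all probe sets, where it was −0.020. Centring could not change that order, since it takes the same amount from both medians, and with no floor both were unchanged. Apart from the median over probe sets and the leaving out of suffixes, the alternatives read the same probe set of each gene. Members at least 2-fold higher numbered 1 with the floor at the 50th percentile, 2 with no floor and 1 with a pseudocount. Members at least 1.5-fold higher numbered 1 with the loess trend removed and 0 with the floor at the 75th percentile. Members at least 1.5-fold lower numbered 2 with the floor at the 75th percentile, 2 with a pseudocount and 1 with the median over probe sets. For genes of the whole array, the counts at least 2-fold higher and lower were 341 and 206 with the floor at the 50th percentile, 23 and 23 at the 75th, 659 and 388 with no floor, 86 and 52 with a pseudocount, and 65 and 39 with the median over probe sets. At 1.5-fold they were 1324 and 905, 221 and 224, 1390 and 949, and, with the median over probe sets, 391 and 289. With the loess trend removed, the split turned from 138 higher and 94 lower to 100 and 128 at 2-fold, and from 775 and 577 to 604 and 721 at 1.5-fold. Fewer genes pass a higher floor by construction; the other causes were not tested. Of the named members' log2 ratios under the alternatives, 177 moved by less than the local spread and 12 by more, and none that was past 1.5-fold turned its sign, although Ezh1 was at 0.00 with the median over probe sets. Signals close to the floor, such as those of Kmt5c, Prmt6, Tet2 and Kdm2a, limit what can be read from them.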

Other observations

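Readers of DNA and histone methylation had a median log2 ratio of 0.20 over 7 of 9 genes above the floor in at least 1 pool, and of 0.038 over the 6 above it in both. Cbx5, a heterochromatin protein, had 0.37 and Atrx, a chromatin remodeller, 0.32. Mbd3, a subunit of the NuRD complex, had 85.4 in the control, below the floor, and 547 in the threonine-deficient pool, at least 2.07-fold higher, and it was read by 1 probe set.

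Enzymes that make or use 2-oxoglutarate, the cosubstrate of TET and Jumonji enzymes, gave a median of −0.17 over 11 genes. Of these, 81.8% were negative, beside 49.85% of all genes above the floor. Dlst, a subunit of the 2-oxoglutarate dehydrogenase complex, went from 1730 to 1028 (−0.75, local spread 0.27), and D2hgdh, which oxidises D-2-hydroxyglutarate, went from 1271 to 1662 (0.39). Genes of base excision repair and the Gadd45 family, which serve the later steps of DNA demethylation, had a median of −0.19 over 7 of 8 genes above the floor. Xrcc1, a scaffold of the repair, went from 434 to 736 (0.76, local spread 0.41), and Gadd45b went from 2284 to 1518 (−0.59, local spread 0.25).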
